A study of Canis lupus familiaris with 12 samples.

Results

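The genes described here encode the proteins of the mitochondrial ribosome and of the machinery that brings proteins into mitochondria. They were taken by symbol: every gene whose name begins with MRPL or MRPS and a number, TIMM and a number, or TOMM and a number. The rule found 82 of the 29822 genes in the deposited tables, of which 40 were MRPL genes, 22 MRPS genes, 12 TIMM genes and 8 TOMM genes. Of these, 79 (40 MRPL, 21 MRPS, 11 TIMM and 7 TOMM) had enough reads to be tested, and each of the 79 had at least 58 exon reads in every library. The other 3 were MRPS36 and the first of the 2 TIMM9 copies, both with 0 reads in all 12 libraries, and TOMM20L, with 1 read in a single library. MRPL12, TIMM13, TIMM17B, TIMM23 and TOMM22 were not found by symbol and were not analysed here.

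The cells were canine peripheral blood mononuclear cells (PBMCs), the lymphocytes and monocytes that a Lymphoprep density gradient separates from blood, from healthy male beagles that were free of specific pathogens and kept as blood donors. They were cultured for 24 h with nothing added (untreated), with 5-aminolevulinic acid (ALA, 1.0 mM), a precursor of heme, with concanavalin A (ConA, 0.5 µg/ml), a plant lectin that stimulates T cells to divide, or with both agents (ConA+ALA). Each of the 4 groups had 3 libraries, numbered 1 to 3 in the labels, which do not say whether the numbers stand for separate animals, so p-values measure only the spread between these libraries. All cultures shared the same medium, with fetal bovine serum and 2-mercaptoethanol, and no age was given for the dogs.

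As background, the mitochondrial ribosome has a large subunit, which holds the MRPL proteins and joins amino acids. Its small subunit holds most but not all of the MRPS proteins and reads the messenger RNA. The families below go by gene name, not by place in a subunit. The mitochondrial ribosome translates only the few messages of the mitochondrial genome, which encode core subunits of the respiratory chain and the ATP synthase. Its own proteins are nuclear-encoded, made in the cytosol and imported. The TOM complex is the entry gate of the outer membrane, and the TIM complexes carry proteins across or into the inner membrane, with small TIM proteins acting as chaperones in the space between. Lymphocytes that leave rest to divide are known to build up mitochondria, which is the setting of the comparison with ConA.

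The libraries held between 13390692 and 21517099 exon reads. The libraries numbered 1 stood apart from the rest in all 4 groups: mitochondrially encoded genes took 3.59 to 4.82% of their exon reads, against 11.8 to 23.3% in the libraries numbered 2 and 3, and exon-exon reads made up 52.4 to 54.2%, against 36.1 to 43.4%. T cell, B cell and NK cell markers were present in every group, as were those of monocytes. Several marker lists were lower in sum with ConA, the T cell, NK cell, platelet and red cell lists with overlapping ranges. The B cell sum was not lower. The summed level of 8 T cell markers was 883 to 1492 CPM in untreated libraries and 584 to 954 CPM with ConA, where CPM is the exon read count scaled to 1000000 reads of the TMM-normalised library. That of 6 monocyte markers was 398 to 751 and 98.2 to 334 CPM, and that of 5 neutrophil markers was 200 to 431 and 73.9 to 155 CPM, or 117 to 201 and 37.8 to 46.0 CPM without MMP9. That of 6 B cell markers was 1453 to 2314 and 1355 to 2344 CPM. CD79A made up most of the B cell sum, and the median log2 fold change of the B cell list was -0.83. None of the T cell, B cell or monocyte markers was at 0 in the untreated or ConA libraries. Of the neutrophil markers, 1 was at 0 in untreated libraries 2 and 3, and 1 or 2 were at 0 in each ConA library. CXCR2 was at 0 in all of these libraries. The part of these shifts in the values below was not tested, and in such bulk samples fewer cells of a type and less RNA per cell cannot be told apart.

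Levels were first set side by side per unit of exon length, as the authors' TPM, which scale the length-corrected counts of a library to 1000000. Averaged over the 12 libraries, the 79 members ran from 11.6 TPM for TOMM40L to 376 TPM for MRPL21, with a median of 56.8 TPM. MRPL20 (320 TPM), TOMM6 (234 TPM) and MRPS21 (221 TPM) followed MRPL21. The lowest after TOMM40L were MRPL17 (14.7 TPM), MRPL10 (16.0 TPM), TOMM34 (17.3 TPM) and MRPS27 (19.2 TPM). The median level of the members was 47.7 TPM in untreated cells, 45.3 TPM with ALA, 61.3 TPM with ConA and 60.0 TPM with both agents.

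The members took a larger share of the libraries with ConA. Summed over them, they gave 3089 to 3514 CPM of the exon reads outside the mitochondrial genome in untreated libraries and 4954 to 5763 CPM in ConA libraries, so that the groups did not overlap. Gene by gene, 39 of the 79 tested members were higher with ConA than without and 1, TOMM34, was lower (edgeR quasi-likelihood test, adjusted p below 0.05 over 13358 genes). Of all genes tested, 9.93% were called higher and 8.57% lower. The median log2 fold change over the members was 0.87, against -0.05 over all genes tested, and 77 of the 79 lay above 0 (47.6% of all genes). In every called member the 3 ConA libraries lay apart from the 3 untreated libraries. All 3 were above all untreated libraries in 50 members, which was so for 17.3% of all genes. Between libraries of the same number, the median difference of the members was 0.98, 0.86 and 0.62 for numbers 1, 2 and 3, and 68 members were higher in all 3 numbers (30.6% of all genes).

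Because libraries of the same number deviated together, the comparison was also fitted with the number as a block. The members called higher then came to 62, again with TOMM34 alone lower, while the calls over all genes rose to 21.3% higher and 21.2% lower. The 40 members called without the block were all among these. Calls rest on TMM-normalised counts, and TPM can differ. TIMM21, called only with the block, averaged 67.0 TPM untreated and 67.4 TPM with ConA. The TPM sum of every family was still higher with ConA on average, for MRPL 3615 against 2556 TPM. For MRPS it was 1699 against 1322 TPM. The MRPS sum alone overlapped between the groups, at 1126 to 1482 TPM untreated and 1422 to 2191 TPM with ConA. The 16 members called in neither fit were MRPL10, MRPL14, MRPL19, MRPL34, MRPL41, MRPL43, MRPL44, MRPL49, MRPL52, MRPL53, MRPL54, MRPL57, MRPS21, TIMM10B, TIMM22 and TIMM29. Fits with libraries left out, here and below, were all made without the block, and none was made with it. The call in 21 of the 40 members held whichever of the 12 libraries was left out. The others lost it without at least 1 library, and the number called fell to 25 without the first untreated library and 26 without the second ConA library. Leaving out all 4 libraries of a number gave 41 calls without number 1, 1 call (TIMM8A) without number 2 and 14 without number 3. The log2 fold change stayed above 0 in 76, 78 and 75 members, respectively.

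**Figure D1:**
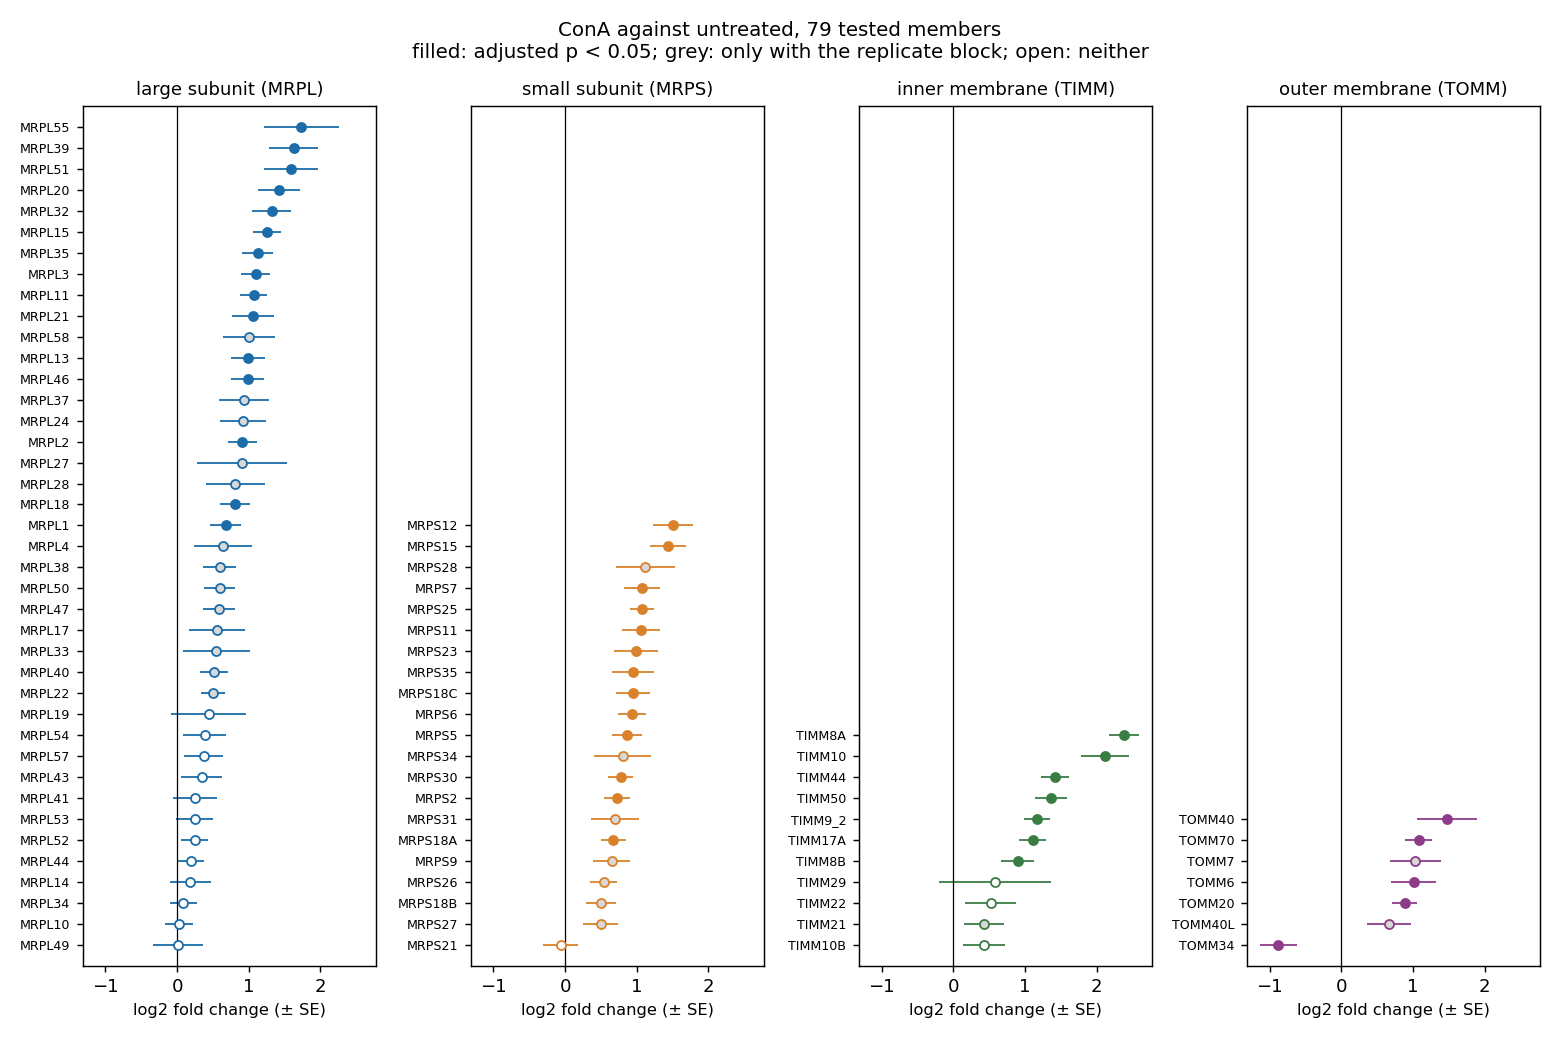
Log2 fold change (horizontal axis, with its standard error) of each of the 79 tested members with ConA against untreated cells, in 4 panels by family, from 3 libraries a group. Filled points passed an adjusted p of 0.05, grey points passed only with the replicate block, and open points passed in neither; all but MRPS21 and TOMM34 lie above 0.

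Of the MRPL genes, 15 of 40 rose with ConA and none fell, with a median log2 fold change of 0.66, and 28 rose with the block. MRPL15, a core protein also found in bacterial ribosomes, stood at 32.0, 25.4 and 32.2 CPM in the untreated libraries 1 to 3 and at 66.2, 76.6 and 71.3 CPM with ConA. Each ConA library was above 2 times the untreated mean, and the log2 fold change was 1.26 ± 0.19 (SE, n = 3 a group; edgeR adjusted p = 0.00135). MRPL11, part of the stalk base where translation factors dock, went from 31.7, 44.8 and 42.2 CPM to 81.6, 85.7 and 81.2 CPM, a log2 fold change of 1.07 ± 0.19 (edgeR adjusted p = 0.00285). MRPL20, the second most abundant member per length, had 67.6, 97.1 and 105 CPM untreated and 172, 294 and 255 CPM with ConA. By CPM the library numbered 1 was the lowest in both groups. By TPM it was the highest, at 222 against 207 and 207 TPM untreated and 451 against 394 and 422 TPM with ConA. The log2 fold change was 1.42 ± 0.30 (edgeR adjusted p = 0.00667).

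MRPL3 (1.09 ± 0.20) and MRPL35 (1.12 ± 0.22) completed the MRPL genes with the most certain rises. The steepest MRPL rises were in MRPL55 (1.73 ± 0.52), MRPL39 (1.63 ± 0.34) and MRPL51 (1.59 ± 0.38). These 3 were singled out after their values were seen. MRPL55 had 23.2, 47.7 and 47.9 CPM untreated and 60.2, 203 and 131 CPM with ConA, so its spread within groups was wide, and its call (edgeR adjusted p = 0.038) was lost without any 1 of 6 libraries, with an adjusted p of up to 0.143. The call of MRPL51 was lost without the first untreated library (edgeR adjusted p = 0.0512). MRPL21, the most abundant member, changed by 1.06 ± 0.30 (edgeR adjusted p = 0.0276). It lost the call without the second ConA library or the first untreated one, with an adjusted p of up to 0.109. At the other end, MRPL10 (0.03 ± 0.20, edgeR adjusted p = 0.945) and MRPL49 (0.01 ± 0.35, edgeR adjusted p = 0.988) gave 95% intervals of -0.40 to 0.46 and -0.74 to 0.76. Their ConA libraries, 25.8, 26.5 and 30.6 CPM for MRPL10, overlapped the untreated 25.5, 29.6 and 26.1 CPM.

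Of the MRPS genes, 13 of 21 rose and none fell, with a median of 0.87, and with the block 20 rose. MRPS12, which forms part of the decoding centre, had 18.5, 29.9 and 26.4 CPM untreated and 54.3, 91.4 and 65.5 CPM with ConA. All ConA libraries exceeded all untreated ones, with a log2 fold change of 1.50 ± 0.28 (edgeR adjusted p = 0.00369). MRPS15, another protein with a bacterial counterpart, went from 14.4, 10.3 and 9.07 CPM to 38.2, 29.0 and 24.3 CPM, a log2 fold change of 1.43 ± 0.26 (edgeR adjusted p = 0.00309). It was highest in number 1 in both groups, by CPM and by TPM. MRPS25 had 30.5, 33.5 and 39.0 CPM untreated and 74.9, 71.7 and 69.4 CPM with ConA. Its log2 fold change of 1.07 ± 0.16 was the most certain of the MRPS genes (edgeR adjusted p = 0.00133).

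MRPS21, the most abundant MRPS gene per length, was the only one of its family below 0, at -0.06 ± 0.24 (edgeR adjusted p = 0.895, 95% interval -0.59 to 0.46). Its untreated libraries, 67.1, 113 and 67.9 CPM, spanned its ConA libraries, 77.9, 87.2 and 72.6 CPM. MRPS6 rose by 0.93 ± 0.19 (edgeR adjusted p = 0.00682). Its annotated gene spans many others, and 95.2% of the reads counted within it lay in introns, which the exon counts used here leave out. MRPS28 (1.12 ± 0.41, edgeR adjusted p = 0.0822) and MRPS27 (0.49 ± 0.24, edgeR adjusted p = 0.18) missed the threshold and passed it with the block, at adjusted p = 3.9e-05 and 0.0443.

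**Figure D2:**
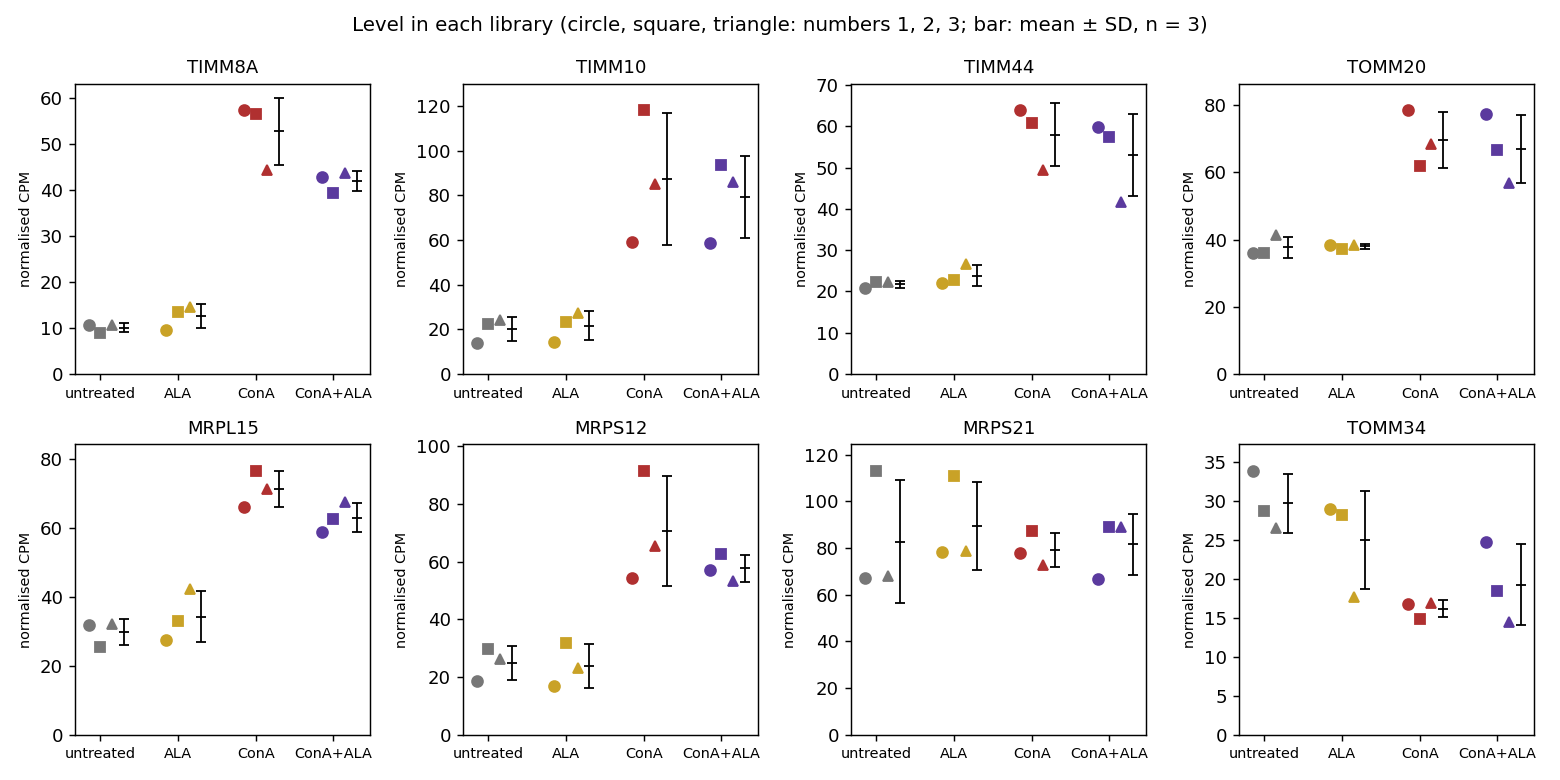
Normalised CPM of 8 members in each of the 12 libraries (vertical axes from 0), by group, with circles, squares and triangles for numbers 1, 2 and 3 and bars for the mean ± SD (n = 3). TIMM8A, TIMM10, TIMM44, TOMM20, MRPL15 and MRPS12 lie higher in both ConA groups than in both groups without it, MRPS21 overlaps throughout, and TOMM34 is lower with ConA than in untreated cells.

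The TIM genes held the 2 largest changes. TIMM8A, at X:75267450-75270288 on the minus strand of CanFam3.1, encodes a small intermembrane-space chaperone whose loss in people causes a deafness and dystonia syndrome. It had 10.7, 9.05 and 10.6 CPM in untreated cells and 57.5, 56.5 and 44.5 CPM with ConA. The lowest ConA library was more than 4 times the highest untreated one, the log2 fold change was 2.38 ± 0.21 (edgeR adjusted p = 1.4e-04), and no library left out raised the adjusted p above 0.00128. TIMM10, at 18:38638696-38641623 on the plus strand, encodes the partner of TIMM9 in the chaperone that escorts carrier proteins. It went from 14.04, 22.2 and 24.1 CPM to 59.1, 118 and 85.0 CPM, a log2 fold change of 2.12 ± 0.33 (edgeR adjusted p = 0.0015). The tested TIMM9 copy rose less, from 20.3, 24.6 and 26.8 CPM to 51.4, 60.1 and 49.7 CPM, by 1.17 ± 0.19 (edgeR adjusted p = 0.00155); the 2 changes were not tested against each other.

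TIMM44, TIMM50 and TIMM17A, which serve the import of proteins with a presequence, also rose. TIMM44, which tethers the import motor to the channel, had 20.7, 22.2 and 22.2 CPM untreated and 63.9, 60.7 and 49.3 CPM with ConA, a log2 fold change of 1.42 ± 0.19 (edgeR adjusted p = 8.1e-04). The untreated libraries were tightly grouped and every ConA library was above 2 times their mean. TIMM50, the receptor that takes proteins over from the TOM complex, went from 38.7, 49.7 and 39.9 CPM to 121, 127 and 83.9 CPM (1.37 ± 0.22, edgeR adjusted p = 0.00175). TIMM50 lies opposite DYRK1B in the annotation, and it is not stated whether the counting used strand. TIMM17A, part of the channel, had 19.8, 24.6 and 28.6 CPM untreated and 57.8, 48.8 and 51.0 CPM with ConA (1.11 ± 0.19, edgeR adjusted p = 0.00205).

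Of the TIMM genes, 7 of 11 rose, with a median of 1.11, and 8 rose with the block. The 4 that missed the threshold were TIMM21, at 0.43 ± 0.28 with a block adjusted p of 0.0186, and 3 genes of the carrier insertion complex. TIMM22, its channel, was at 0.52 ± 0.35 (edgeR adjusted p = 0.343, with the block 0.174) and TIMM10B by 0.43 ± 0.29 (edgeR adjusted p = 0.343, with the block 0.0838). Their 95% intervals, -0.25 to 1.29 and -0.21 to 1.07, included 0 and doublings alike. TIMM29 was at 0.59 ± 0.78, and only 4.15% of its exon reads were unique to it, and it overlaps YIPF2 on the opposite strand, so its value is uncertain.

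Of the 7 genes named TOMM, 4 rose and 1, TOMM34, fell, with a median of 1.01, and 6 rose with the block. TOMM20, the main presequence receptor, had 36.1, 35.9 and 41.4 CPM untreated and 78.6, 61.9 and 68.5 CPM with ConA (0.88 ± 0.17, edgeR adjusted p = 0.00479). TOMM70, the receptor for carrier proteins, went from 44.3, 41.4 and 49.7 CPM to 97.9, 106 and 83.2 CPM (1.08 ± 0.19, edgeR adjusted p = 0.00251). Both receptors were clear of the untreated range in all 3 ConA libraries. TOMM40, the channel itself, had 36.8, 29.5 and 34.3 CPM untreated and 162, 54.0 and 62.8 CPM with ConA. Its log2 fold change of 1.47 ± 0.42 rested largely on number 1, where the difference was 2.12 against 0.86 and 0.87 in the other two. The call (edgeR adjusted p = 0.0302) was lost without the first ConA library or without any one of the untreated ones, with an adjusted p of up to 0.13.

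The small TOM subunits TOMM6 (1.01 ± 0.31, edgeR adjusted p = 0.0423) and TOMM7 (1.04 ± 0.35, edgeR adjusted p = 0.0622) had similar log2 fold changes on either side of the threshold. The call of TOMM6 was lost without any 1 of 7 libraries, with an adjusted p of up to 0.152, and TOMM7 passed with the block at 3.4e-04. TOMM34 is, despite its name, known as a mainly cytosolic co-chaperone of heat shock proteins. It had 33.8, 28.6 and 26.5 CPM untreated and 16.8, 14.9 and 16.8 CPM with ConA, and it fell by 0.88 ± 0.25 on the log2 scale (edgeR adjusted p = 0.0322, with the block 0.0015). The untreated and ConA libraries did not overlap, but the call was lost without any one of the ConA libraries or without untreated library 1 or 2, with an adjusted p of up to 0.105. Its gene overlaps STK4 on the opposite strand.

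Related genes were compared by level per length. In untreated cells TIMM8A stood at 14.2 ± 4.8 TPM and TIMM8B at 29.1 ± 2.3 TPM (SD, n = 3). With ConA they stood at 56.4 ± 25 and 42.2 ± 13 TPM, so that the order of their means turned, although the spreads overlapped. TIMM8B rose by 0.90 ± 0.22 (edgeR adjusted p = 0.0165), a call lost without the first untreated library (0.0629). TIMM10 stood at 52.5 ± 1.0 TPM and TIMM10B at 43.2 ± 1.1 TPM untreated, and at 168 ± 11 and 44.2 ± 8.8 TPM with ConA. TOMM40 (44.9 ± 17 TPM untreated, 107 ± 104 TPM with ConA) was above TOMM40L (11.1 ± 1.3 and 12.7 ± 0.86 TPM) in both groups, and TOMM40L was at 0.67 ± 0.31 (edgeR adjusted p = 0.155, with the block 0.00859). Only 79.8% of the exon reads of TOMM40L were unique to it.

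The 3 MRPS18 genes encode relatives of one bacterial small subunit protein. MRPS18A (0.67 ± 0.17, edgeR adjusted p = 0.0179) and MRPS18C (0.94 ± 0.24, edgeR adjusted p = 0.0167) rose, and MRPS18B was at 0.49 ± 0.21 (edgeR adjusted p = 0.122, with the block 0.0229). MRPS18A lost its call without ConA library 1 or untreated library 2 or 3, and MRPS18C without ConA library 2 or untreated library 1 or 3, with adjusted p of up to 0.0677 and 0.0652. In untreated cells their levels were 24.0 ± 8.3, 56.3 ± 18 and 40.7 ± 8.9 TPM for MRPS18A, MRPS18B and MRPS18C, and the spreads of MRPS18B and MRPS18C overlapped.

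**Figure D3:**
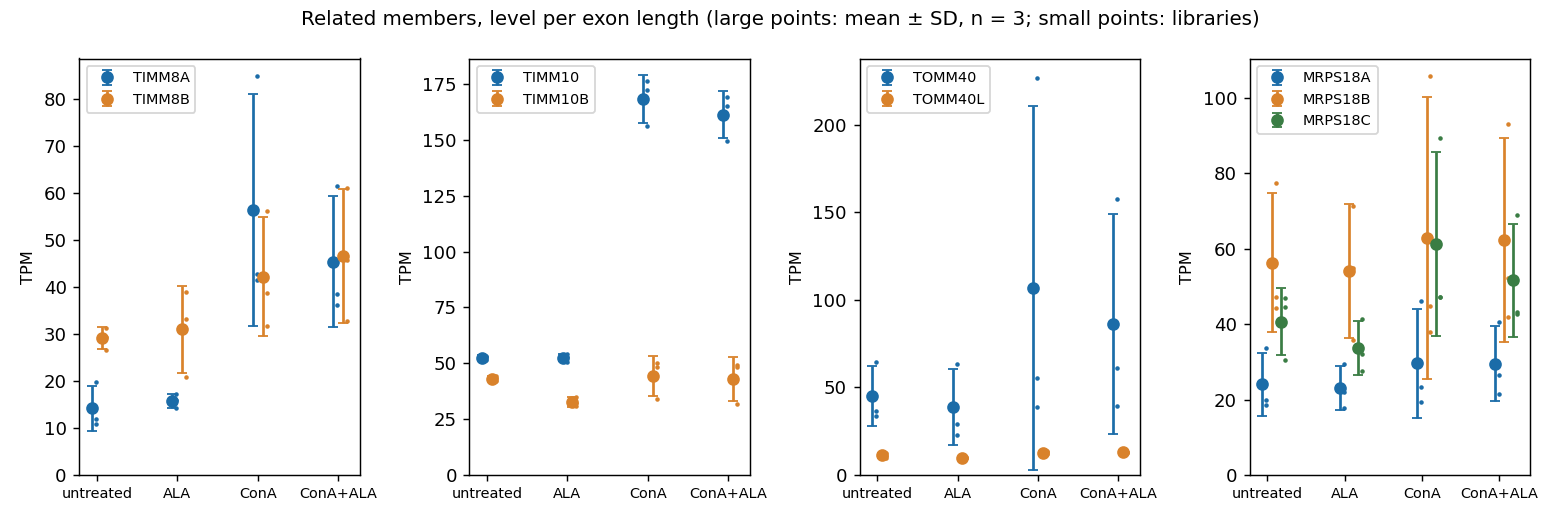
TPM (vertical axes from 0) of 4 sets of related members in the 4 groups, with large points and bars for the mean ± SD of 3 libraries and small points for the libraries. TIMM10 rises away from TIMM10B with ConA, from 52.5 to 168 TPM on average, while TIMM8A and TIMM8B overlap in both ConA groups and TOMM40L stays below TOMM40.

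Across the 79 members, which share the same libraries, the rank correlation of the log2 fold change with the untreated TPM was 0.03, with exon length 0.04 and with the share of reads in introns -0.16, given as a description. The 55 members whose gene overlaps no other annotated gene had a median of 0.80 with 25 higher, and the 24 that overlap one had a median of 0.90 with 14 higher and 1 lower.

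The members' intron reads overlapped between untreated and ConA libraries where their exon reads did not, although they too were higher in each of the 3 numbers, a point examined after the intron shares were seen. Introns are removed as a message matures, so such reads come from unprocessed transcripts or from other RNA of the locus. Scaled to the exon reads outside the mitochondrial genome, the intron reads of the tested members came to 2269, 3098 and 2682 CPM in untreated libraries 1 to 3 and 2285, 3137 and 3009 CPM with ConA. Without MRPS6, which held a large part of the intron reads, the values were 1468, 1691 and 1507 CPM untreated and 1557, 1839 and 1796 CPM with ConA. Gene by gene, the median intron difference was 0.14 in 78 members with a mean of at least 10 intron reads, against -0.21 over 11713 such genes, and 38.5% of these members were higher in all 3 numbers, against 22.2% of the genes. The difference between exon and intron change was above 0 in all 3 numbers in 49 of the 78 members (62.8%, against 22.1% of the genes), with a median of 0.49 against -0.01. In the comparison of ConA+ALA with ALA, it was above 0 in 47 of the 78 members (60.3%, against 27.3%). No test was made of these differences.

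Other genes of the same pathways were followed through 7 lists, described by counts and medians without a test of the list, beside the 9.93% of all genes that were called higher (21.3% with the block). Of 32 genes for mitochondrial translation factors and ribosome assembly, 9 rose and none fell, the median was 0.54, and the block gave 16 higher and 1 lower. Among them were the ribosome recycling factor MRRF (1.85 ± 0.29, edgeR adjusted p = 0.00158), LRPPRC, which stabilises mitochondrial messages (1.82 ± 0.25, edgeR adjusted p = 7.6e-04), the elongation factor TUFM (1.13 ± 0.25, edgeR adjusted p = 0.00897) and GADD45GIP1, a large subunit protein under another name (1.29 ± 0.30, edgeR adjusted p = 0.011). Of 17 mitochondrial aminoacyl-tRNA synthetases, which charge the transfer RNAs, 1 rose (5.88%), IARS2 (0.72 ± 0.20, edgeR adjusted p = 0.0285), a call lost without ConA library 2 or untreated library 1 or 2, at up to 0.107. With the block 5 rose and 1 fell. Their median was 0.22. Of 26 other import, folding and processing genes, 13 rose and none fell, the median was 0.81, and 19 rose in the blocked fit. They included CHCHD4, which oxidises the small TIM proteins (1.71 ± 0.26, edgeR adjusted p = 0.00135), the import motor chaperone HSPA9 (1.59 ± 0.27, edgeR adjusted p = 0.00209) and the outer membrane genes MTX2 (1.29 ± 0.21) and SAMM50 (1.16 ± 0.20).

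The 16 nuclear regulators of mitochondrial genes had a median of 0.25. Of them, 3 rose in both fits (18.8%, against 9.93% of all genes without the block and 21.3% with it). They were TFB2M, a transcription factor of the mitochondrial genome (1.45 ± 0.18, edgeR adjusted p = 5.2e-04), the coactivator PPRC1 (0.86 ± 0.18, edgeR adjusted p = 0.00613) and the elongation factor TEFM (1.65 ± 0.44, edgeR adjusted p = 0.0232). The call of TEFM was lost without ConA library 2 or 3 or untreated library 1 or 3, at up to 0.0895. Of 53 nuclear-encoded subunits of the respiratory chain and the ATP synthase, 22 rose and none fell, the median was 0.63, and the block gave 41 higher and 1 lower. Of 59 proteins of the cytosolic ribosome, 6 rose (10.2%, near the share of all genes) and none fell, the median was 0.50, and 39 rose in the blocked fit (66.1%). The 13 mitochondrially encoded proteins had a median of 1.05 with none called. All 13 were called higher with the block, and their share of reads is what set number 1 apart above. With ALA in both arms, the lists in the order given here had 4, 0, 9, 2, 8, 1 and 0 genes higher and none lower, where 5.09% of all genes were higher. With the block they had 13, 2, 16, 4, 37, 50 and 4 genes higher (15.8% of all genes), and 1 gene lower in the translation factor list and 1 in the regulator list. Without the block they had medians of 0.41, 0.35, 0.66, 0.26, 0.54, 0.53 and 0.46.

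With ALA present in both arms, the members again took a larger share with ConA. Of the 79 members, 28 were higher in ConA+ALA than in ALA cells and none lower, where 5.09% of all genes were called higher and 3.03% lower. With the block 61 were higher and none lower, against 15.8% and 14.3% of all genes. The median was 0.71, against -0.07 over all genes, and 76 members lay above 0 (45.9% of all genes). The ConA+ALA libraries were all above the ALA libraries in 55 members (14.9% of all genes), and 69 were higher in all 3 numbers (28.2% of all genes). Their sum was 3051 to 3515 CPM of the exon reads outside the mitochondrial genome with ALA and 4613 to 5399 CPM with both agents. By family, 9 of 40 MRPL, 10 of 21 MRPS, 7 of 11 TIMM and 2 of 7 TOMM genes rose, with medians of 0.61, 0.71, 0.91 and 0.82.

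TIMM8A had 9.68, 13.5 and 14.6 CPM with ALA and 42.9, 39.5 and 43.7 CPM with both agents, a log2 fold change of 1.74 ± 0.21 (edgeR adjusted p = 0.00128). TIMM10 had 14.5, 23.2 and 27.4 CPM and 58.5, 93.6 and 85.8 CPM (1.87 ± 0.33, edgeR adjusted p = 0.00678), and MRPS15 12.8, 10.3 and 9.78 CPM and 34.6, 24.8 and 33.0 CPM (1.49 ± 0.26, edgeR adjusted p = 0.00639). In all 3 genes the groups were far apart. These genes kept their call whichever library was left out, as did TIMM44, TIMM50, TIMM9 and MRPL11, and no others did. The number of calls fell to 8 without ALA library 1, 9 without ALA library 2, and 10, 13 and 14 without ConA+ALA libraries 2, 3 and 1. It was 26, 0 and 2 without numbers 1, 2 and 3. TOMM40, at 37.8, 26.2 and 24.8 CPM against 116, 70.6 and 47.3 CPM, did not pass (1.40 ± 0.42, edgeR adjusted p = 0.0619, with the block 0.0015). TOMM34, at 29.0, 28.1 and 17.7 CPM against 24.8, 18.5 and 14.5 CPM, overlapped between groups, with -0.37 ± 0.25 (edgeR adjusted p = 0.426, with the block 0.139).

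The comparisons with ConA in the absence and presence of ALA share no library. They do share the fit, its estimate of spread and the replicate numbers, so they are not independent. Of the members called higher, 27 were called in both, which was 69.2% of the 39 without ALA and 96.4% of the 28 with it. The same overlap was not counted over all genes. MRPS27 alone was called only with ALA (0.93 ± 0.24, edgeR adjusted p = 0.0369, and up to 0.129 without 1 library, 7 of which ended the call). With the block, 58 were called in both, of 62 and 61.

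**Figure D4:**
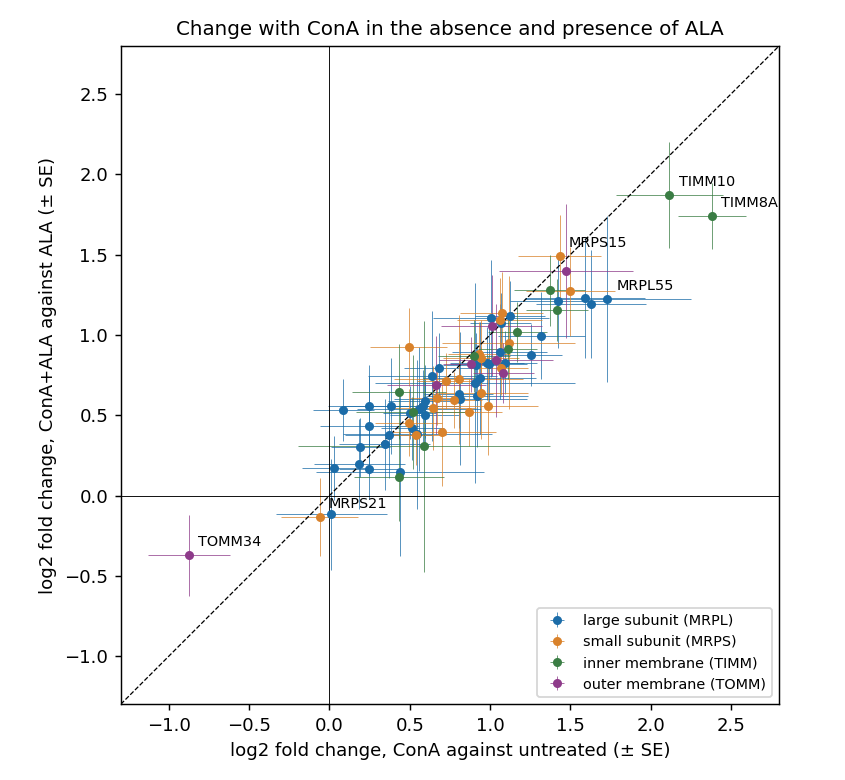
Log2 fold change with ConA in the absence of ALA (horizontal axis) and in its presence (vertical axis) for the 79 tested members, coloured by family, with standard errors; the dashed line marks equal change. Most points lie in the upper right near the line, TIMM8A and TIMM10 are the farthest out, at 2.38 and 1.74 and at 2.12 and 1.87, and TOMM34 is the lowest in both.

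Whether the response to ConA differed with ALA was tested as an interaction, the log2 fold change with ConA in the presence of ALA minus that in its absence. No member passed, with or without the block, and no gene at all passed (0% in both fits). At an unadjusted p below 0.05 without the block there was 1 member, TIMM8A, against 1.66% of all genes. Its interaction was -0.64 ± 0.29 (95% interval -1.26 to -0.02, edgeR unadjusted p = 0.0442, adjusted p = 1.0), and the difference was below 0 in numbers 1, 2 and 3 (-0.29, -1.06 and -0.46). The median over the members was -0.09, with 58 of 79 below 0, against -0.02 over all genes. Values above 0 made up 26.6% of the members and 48.3% of all genes, and the members were not tested as a set. The intervals were wide: without the block 42 of the 79 lay wholly within a 2-fold change either way, and with it 77 did, the others being TIMM8A and TOMM34 (0.49 ± 0.26 with the block).

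With ALA alone no member passed the test. None of the 79 was called against untreated cells, without or with the block (0% and 0.0449% of all genes). Without the block, none had an unadjusted p below 0.05 (1.16% of all genes). DESeq2 and limma-voom called none either. The log2 fold changes ran from -0.31 (TIMM10B) to 0.34 (TIMM29), with a median of 0.04 and 44 above 0 (55.7%, against 49.9% of all genes). The ALA libraries overlapped the untreated ones in all 79 members (groups apart in 4.27% of all genes). TIMM8A had 9.68, 13.5 and 14.6 CPM with ALA against 10.7, 9.05 and 10.6 CPM without, a log2 fold change of 0.31 ± 0.20 with a 95% interval of -0.13 to 0.75. The member with the smallest unadjusted p was MRPL34, at -0.29 ± 0.19 (edgeR unadjusted p = 0.152). With the block, the intervals of all 79 members lay within a 2-fold change, between -0.81 and 0.78, and without it those of 70 did.

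Adding ALA to ConA likewise gave no call. None of the 79 was called, without or with the block (0% and 0.554% of all genes). Without the block, none had an unadjusted p below 0.05 (3.33% of all genes). DESeq2 and limma-voom again called none. The median log2 fold change was -0.05, with 23 above 0 (29.1%, against 46.1% of all genes). The values ran from -0.46 (MRPS23) to 0.26 (MRPS27). MRPS23 had 59.3, 82.6 and 86.6 CPM with ConA and 47.1, 57.3 and 61.7 CPM with both agents. It was lower in all 3 numbers, at -0.46 ± 0.31 (95% interval -1.13 to 0.21), and with the block its unadjusted p was 0.0123 and its edgeR adjusted p 0.304. TIMM8A was likewise lower in all 3 numbers, and its ConA+ALA libraries (42.9, 39.5 and 43.7 CPM) lay below its ConA libraries (57.5, 56.5 and 44.5 CPM), at -0.33 ± 0.20 (95% interval -0.77 to 0.11). The groups were apart in 5 members (7.74% of all genes): MRPS25, MRPS18C and TIMM8A below ConA alone, and MRPL22 and MRPS6 above it. With the block, the intervals of all 79 lay between -0.80 and 0.83. The sum of the 5 neutrophil markers was 656 to 2406 CPM in ConA+ALA libraries against 73.9 to 155 CPM with ConA, and 1 gene, MMP9, made up most of it, with 784, 570 and 2324 CPM against 50.3, 29.9 and 117 CPM. Without MMP9 the sums were 82.3 to 92.1 CPM against 37.8 to 46.0 CPM, with CXCR2 at 0 and CSF3R below 1 CPM in both groups, and the part of these markers in the members' values was not tested.

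**Figure D5:**
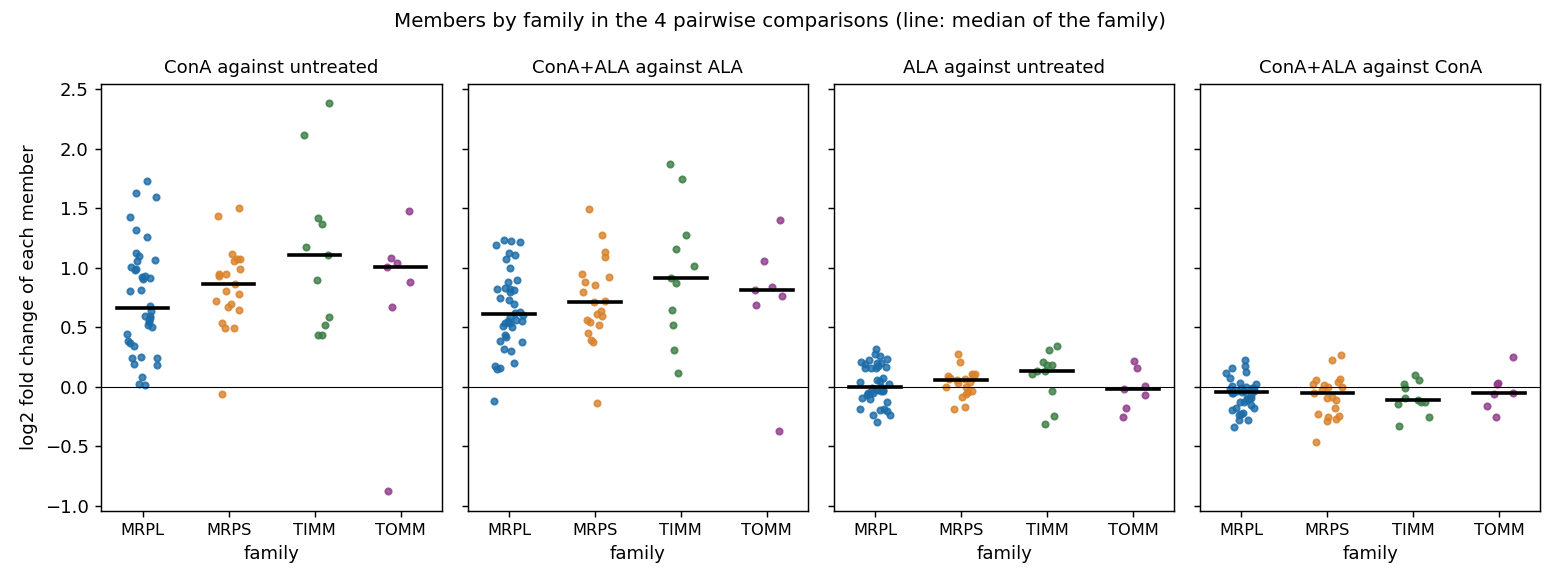
Log2 fold change of each tested member (points) and the median of each family (lines) in the 4 pairwise comparisons. The 2 comparisons with ConA put family medians between 0.61 and 1.11, and the 2 comparisons with ALA leave all members between -0.46 and 0.34.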

How the data were processed

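Per the labels, poly(A) RNA was made into NEBNext Ultra II libraries and read as 75 bp pairs on an Illumina NextSeq. The submitters' processing notes name the build CanFam3.1 and bcl2fastq; for the aligner, the counter and the use of strand, the tool or setting was not given in the sources used here. Per the file headers, the authors' tables hold total and unique exon, intron, gene and exon-exon reads as counts, and TPM. Exon counts as deposited entered edgeR (4.0.16, under R 4.3.3; TMM, filterByExpr, robust quasi-likelihood, 4 group means over 12 libraries, Benjamini-Hochberg over 13358 genes). CPM values are TMM-normalised; within-number differences are log2(CPM + 0.5), and intervals are at 95%. TPM served only for levels. The code was tested on counts simulated for ConA against untreated cells. The test without the block recovered 6% of genes changed by 1 on the log2 scale and 67% of those changed by 2. Of its 76 calls, 3 were false. The simulation changed far fewer genes than were called in the data. It drew them from well-counted genes at large, not from the members, so its shares are not the members' own rates of recovery. A gene that was not called may still have changed.

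The replicate numbers come from the titles. In 18 pairs of same-numbered libraries, deviations from group means correlated at 0.376 to 0.748, above the threshold of 0.1; pairs of different numbers gave -0.498 to 0.206. The members and lists were chosen with earlier results of these data known. Named were, per family and comparison, the 4 called members with the smallest p (or the smallest-p member), those against the main direction, the highest and lowest by TPM, and 25 set symbols, of which 20 were found; others are listed or stated as chosen later. Alternatives were DESeq2 1.42.0, limma-voom (limma 3.58.1), other size factors, filters and read classes, and left-out libraries, the last without the block. Gene sequences were not used here, so the planned promoter search was not made.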

Additional observations from a re-analysis of the deposited data

How the results depend on the processing

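The counts of called members depended on the model more than the sizes of the changes did. For ConA against untreated cells, where 40 of 79 members were called, the fit with the replicate number as a block called 63, and the other settings called 27 to 46. Leaving out 1 library gave 25 to 40 calls, and leaving out a replicate number 1 to 41. For ConA+ALA against ALA, where 28 were called, the block gave 61, a fit of only the groups compared 18, and the rest 19 to 37. Leaving out 1 library gave 8 to 29, and leaving out a number 0 to 26. The block changed no other call of a member. The median log2 fold change stayed between 0.72 and 0.96 in the first comparison and between 0.63 and 0.80 in the second, over 24 alternatives each. ALA against untreated cells, ConA+ALA against ConA and the interaction called no member under any alternative; the interaction needs all groups, so the fit of only the groups compared was not run for it. Of 1964 values of named members, 1727 kept direction and side of the threshold, 31 passed it newly, 197 lost it and 9 changed sign. The sign changed for MRPL10 with ConA, at -0.0085 with a mean of at least 50 counts required and between -0.0767 and 0.16 with libraries left out, and for MRPS21, between -0.19 and 0.24 without ALA and between -0.28 and 0.054 with it, again with libraries left out. The cause was not tested. With 3 libraries a group, the smallest log2 fold change called with ConA was 0.67 and the largest not called 1.12, so smaller changes were not detectable in the more variable genes.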

Other observations

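The members differed between the replicate numbers in a way the treatments do not cover. By CPM, the library numbered 1 was the lowest of the 3 in all 4 groups in 30 of the 79 tested members. In 6 it was the highest in all 4. The median difference between number 1 and the others was -0.20 on the log2 scale. MRPL55 is an example of the first kind, with 23.2 CPM against 47.7 and 47.9 CPM in untreated cells and 65.3 CPM against 141 and 118 CPM with both agents. MRPL49 is an example of the second, with 12.2 CPM against 8.92 and 7.56 CPM in untreated cells and 10.1 CPM against 7.33 and 5.33 CPM with both agents. The counts of 30 and 6 were not made over all genes, whose same-numbered libraries also deviated together. The direction depended on the scale, as the TPM sum of every family averaged highest in number 1. For MRPL it averaged 3435 TPM in number 1, against 2993 and 2786 TPM in numbers 2 and 3. Of the 24 members whose gene overlaps another, 21 overlap one on the opposite strand, among them MRPL46 and MRPS11, which overlap each other. MRPL46 changed by 0.98 ± 0.23 and MRPS11 by 1.06 ± 0.26 with ConA (n = 3 a group).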
